A study of Mus musculus with 6 samples.

Results

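The genes described here are 10 members of the epidermal growth factor (EGF) signalling system, read from a table of 22558 mouse genes. They are 6 ligand genes (Btc, Hbegf, Ereg, Areg, Tgfa and Nrg1) and the 4 ErbB receptor genes (Egfr, Erbb2, Erbb3 and Erbb4). Btc was chosen by its measured rise in the knockout libraries, so its values are given as a description with no test. The other 9 were taken as relatives of Btc by name, with earlier results of these data known, and are tested below. RNA from whole eyes of mice at postnatal day 21 was sequenced in 6 libraries. The 3 wild type libraries came from C57BL/6 mice, and the 3 knockout libraries came from mice of the same strain label with the genotype BC027072 -/-. No treatment or other allele is labelled in either group, and how the null allele was made is not given in the sources used here. BC027072 is the mouse counterpart of human C2orf71, also called PCARE, which encodes a protein of the photoreceptor outer segment and cilium. The labels do not state whether the libraries of a group came from separate animals, and the p-values therefore cover only the variation among these libraries, which in wild type may be technical.

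EGF family ligands are made as membrane-anchored precursors, and metalloproteases such as ADAM17 and ADAM10 cut them free. A released ligand joins ErbB receptors into pairs, and the paired kinases switch on the Ras-ERK and PI3K-Akt cascades. Betacellulin (Btc), HB-EGF (Hbegf) and epiregulin (Ereg) bind EGFR and ErbB4, amphiregulin (Areg) and TGF-alpha (Tgfa) bind EGFR, and neuregulin 1 (Nrg1) binds ErbB3 and ErbB4. ErbB2 has no known ligand of its own and acts as a partner, and ErbB3 has a weak kinase. In the eye the system is known for renewal and wound closure of the corneal epithelium and for the response of Mueller glia to retinal injury.

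Btc is the member chosen for its rise, so its upstream sequence is shown. The Btc gene lies on chromosome 5 at 91786287 to 91832020 in mm9, the build of the deposited files. The 250 bases before its RefSeq start are chr5:91402995-91403244 in GRCm38.p6, a later build whose positions differ from those of mm9, and are printed 5′ to 3′ on the minus strand, the strand of the gene.

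Btc upstream: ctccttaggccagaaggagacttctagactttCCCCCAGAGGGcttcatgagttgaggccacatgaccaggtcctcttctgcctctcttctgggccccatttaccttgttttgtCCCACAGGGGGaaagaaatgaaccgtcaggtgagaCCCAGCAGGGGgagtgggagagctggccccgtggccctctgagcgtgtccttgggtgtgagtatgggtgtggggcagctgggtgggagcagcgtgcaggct

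The capitals mark the stretches that match CC, any 6 bases and GG, a loose reduction of the SRF motif that is called SRF-type here. This gave 6 overlapping matches in 3 stretches. In every match the 6 inner bases hold C or G, and the matches are not called SRF sites. Motifs were searched on both strands. No match to the AP-1 motif TGANTCA, the STAT motif TTCNNNGAA or the C/EBP motif TTNCNNAA was found in this window. Of 32851 mouse RefSeq promoter entries cut to the same length, 6.75% held the AP-1 letters, 7.02% the STAT letters, 36.8% the C/EBP letters and 67.1% the SRF-type letters, and 55.8% held none of the first 3 motifs. These are matches of letters only. Of the 10 members, 6 had an entry in the promoter table, and only the Btc sequence is shown.

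The libraries held 5695526 to 21815954 estimated fragments, with the deepest in the wild type group. The targeted gene, BC027072, had 5854, 3667 and 2251 fragments in wild type, against 3, 2 and 3 in knockout. By their Xist and Y-linked fragments the libraries were of both sexes: all 3 wild type libraries and knockout replicate 2 were female, and knockout replicates 1 and 3 were male, so the knockout libraries did not all come from the same animal. Of 14919 genes that passed the filter on low counts, 931 passed an adjusted p of 0.05 in edgeR's quasi-likelihood test, or 6.24%. Of these, 431 genes (2.89%) were higher and 500 (3.35%) lower in the knockout. Of 7 tested rod markers 6 fell and 1 rose, with a summed level of 24786 to 25566 CPM (counts relative to TMM-adjusted library size) in wild type and 15343 to 17493 in knockout. The rod marker that rose was Sag, the rod arrestin gene, at a log2 fold change of 0.33 ± 0.06 (adjusted p = 0.00249), singled out once its value was known. All 10 members passed the filter. In bulk tissue, fewer cells of a type and less RNA per cell cannot be told apart.

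Btc, which encodes betacellulin, was measured at 8.37, 8.18 and 9.95 CPM in wild type, against 29.0, 33.9 and 33.4 CPM in knockout. The groups did not overlap, and the lowest knockout library was well above the highest wild type library. The fragments behind these levels were 180, 116 and 81 in wild type and 248, 197 and 354 in knockout. The wild type mean was 8.83 ± 0.971 CPM and the knockout mean 32.1 ± 2.69 CPM (SD, n = 3), a ratio of 3.64. The log2 fold change, here always knockout over wild type, was 1.89 ± 0.11 (SE), with no test because this rise chose the gene. Knockout replicate 2, the only female knockout library, had the highest Btc level of all 6. That it lay above the 3 female wild type libraries follows from the gap between the groups and says nothing separate about sex. With sex of the library as a covariate the log2 fold change was 1.97, which rests on knockout replicate 2 alone against wild type.

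**Figure D1:**
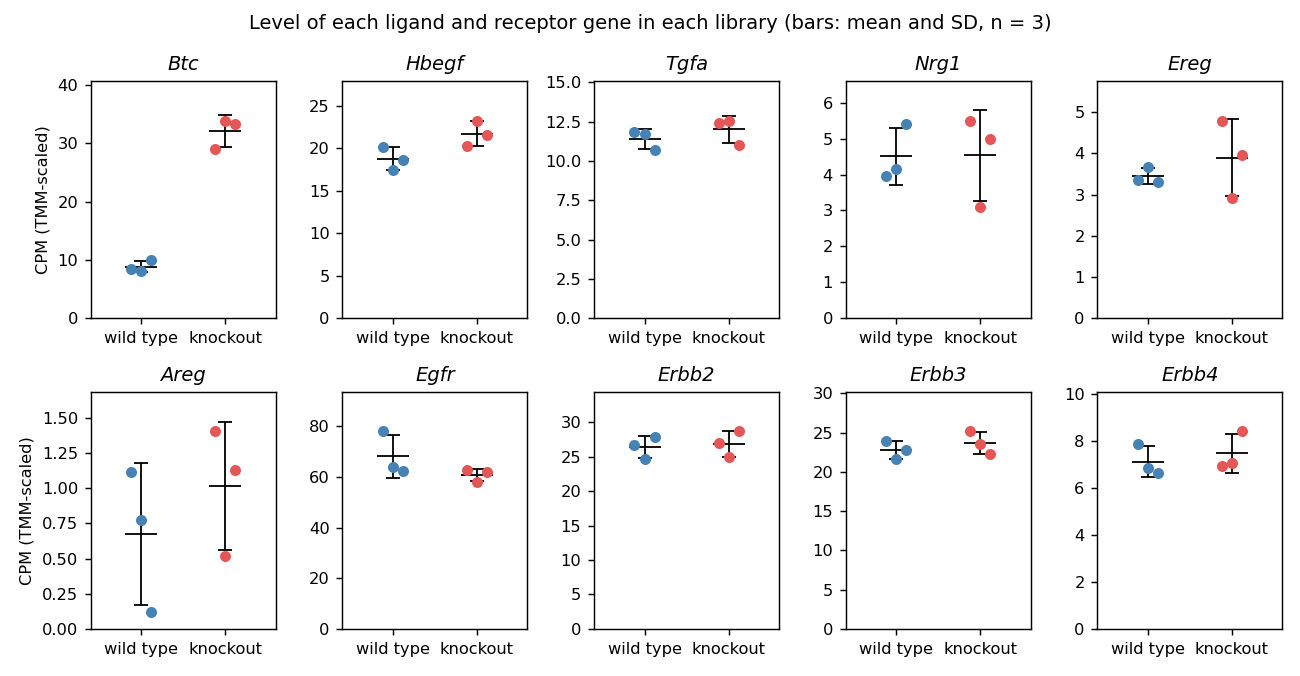
Level of each of the 10 member genes in CPM (vertical axes from 0) in the 3 wild type and 3 knockout libraries, with bars for the mean and SD. Btc lay at 8.18 to 9.95 CPM in wild type, against 29.0 to 33.9 CPM in knockout, and the 2 groups overlapped for every other member except Hbegf.

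The FPKM values that the authors deposited, which are per kilobase and carry their own scaling, were 1.93, 1.25 and 3.30 for Btc in wild type and 6.17, 7.24 and 9.13 in knockout. These groups did not overlap either, and the ratio of their means was 3.47. The FPKM spread more within a group than the CPM did. The ratio of FPKM to CPM for Btc varied 2.17-fold between libraries, against a median of 1.44-fold over 14870 genes, and 7.59% of those genes varied as much as Btc or more. Why the deposited scales differ in this way was not tested. Btc has 1 transcript in the isoform table, NM_007568, so no shift between its isoforms could be seen.

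Hbegf encodes HB-EGF, a ligand known for corneal wound closure. Its level was 20.1, 17.4 and 18.7 CPM in wild type, against 20.3, 23.3 and 21.6 CPM in knockout. The lowest knockout value lay just above the highest wild type value, so the groups touched without overlapping. Such a gap was common: 11.6% of tested genes had all 3 knockout values above all 3 wild type values, and 11.7% had all 3 below. The log2 fold change of Hbegf was 0.20 ± 0.10 (SE), with a 95% interval of 0.992- to 1.32-fold and an adjusted p of 0.296 in edgeR, so it was not called.

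Tgfa encodes TGF-alpha. It was measured at 11.9, 11.7 and 10.7 CPM in wild type, against 12.4, 12.6 and 11.0 CPM in knockout, and the groups overlapped. Its log2 fold change was 0.05 ± 0.12, with a 95% interval of 0.872- to 1.23-fold and an adjusted p of 0.903. A change in Tgfa as large as the ratio of Btc lies far outside that interval.

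Ereg encodes epiregulin and Areg amphiregulin, and both were low. Ereg was at 3.35, 3.67 and 3.32 CPM in wild type, against 4.80, 2.93 and 3.96 CPM in knockout. The knockout values lay on both sides of the wild type range, with a log2 fold change of 0.21 ± 0.20, an interval of 0.856- to 1.56-fold and an adjusted p of 0.655. Areg had 24, 11 and 1 fragments in wild type and 12, 3 and 12 in knockout, or 1.12, 0.776 and 0.123 CPM and 1.40, 0.517 and 1.13 CPM. With counts this low the log2 fold change of 0.42 ± 0.46 had an interval of 0.675- to 2.64-fold and an adjusted p of 0.704. The Areg interval thus holds falls and rises of considerable size, and no direction can be given.

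Nrg1, the neuregulin known for its part in Schwann cell and synapse development, was at 3.95, 4.16 and 5.40 CPM in wild type, against 5.50, 3.10 and 5.0 CPM in knockout. The groups overlapped over most of their range. The log2 fold change was 0.10 ± 0.21, with an interval of 0.788- to 1.46-fold and an adjusted p of 0.853. The gene has many known isoforms, and the deposited table holds 1 transcript of it, NM_178591, so the value covers reads assigned to that transcript alone.

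Egfr, the receptor for most of these ligands, was the most abundant receptor. It was measured at 78.0, 64.0 and 62.4 CPM in wild type, against 62.6, 57.9 and 61.7 CPM in knockout. Wild type replicate 1 stood above the other 5 libraries, which lay between 57.9 and 64.0 CPM. The log2 fold change was -0.17 ± 0.08 (SE), with an interval of 0.784- to 1.00-fold and an adjusted p of 0.279. Without wild type replicate 1 the log2 fold change was -0.06, with an adjusted p of 0.782.

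The deposited isoform table splits Egfr into 2 transcripts. The long transcript NM_207655, of 5965 bases, held 88.3, 90.2 and 90.1% of Egfr fragments in wild type and 85.5, 91.2 and 90.3% in knockout. The short transcript NM_007912, of 2678 bases, held the rest. The groups overlapped in this share, with knockout replicate 1 lowest. The log2 fold change was -0.17 ± 0.09 for the long transcript, with an adjusted p of 0.479, and -0.10 ± 0.28 for the short one, with an adjusted p of 0.931. Over all 16288 isoforms tested in edgeR, 260 were called, or 1.6%.

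Erbb2, the partner receptor without a ligand, was at 26.6, 24.7 and 27.9 CPM in wild type, against 26.9, 25.0 and 28.7 CPM in knockout. Erbb3, a neuregulin receptor, was at 23.9, 21.6 and 22.8 CPM in wild type, against 25.2, 23.6 and 22.3 CPM in knockout. For both receptors the ranges of the groups overlapped, and for Erbb3 knockout replicate 1 lay above every wild type library and wild type replicate 2 below every knockout library. The log2 fold change of Erbb2 was 0.04 ± 0.09 with an adjusted p of 0.861, and that of Erbb3 was 0.05 ± 0.09 with an adjusted p of 0.845. Erbb4, which binds neuregulins and betacellulin, was at 7.86, 6.84 and 6.63 CPM in wild type, against 6.91, 7.06 and 8.40 CPM in knockout. Its log2 fold change was 0.06 ± 0.15, with an adjusted p of 0.877. The 95% intervals of the 4 receptors together ran from 0.784- to 1.30-fold, so a change of the size seen in Btc lies outside all of them.

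**Figure D2:**
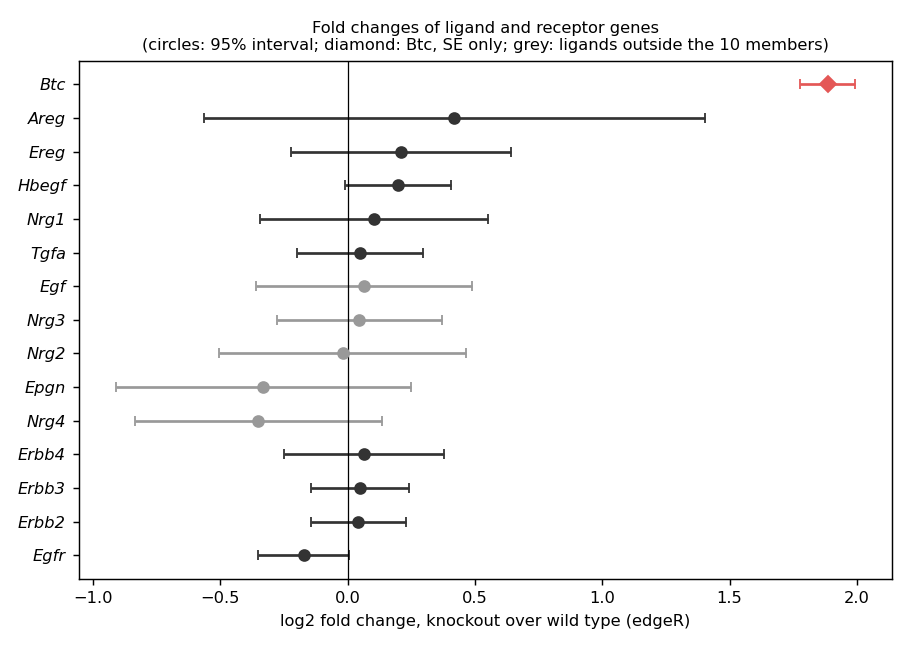
Log2 fold change (knockout over wild type) for 11 ligand and 4 receptor genes, with 95% intervals for the tested genes and the SE alone for Btc. Btc stands at 1.89, and the intervals of the other 14 genes all include 0.

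None of the 9 tested members passed the threshold in edgeR, and none had an unadjusted p under 0.05, a mark that 19.0% of all tested genes met. In edgeR, 0 of 9 is close to the 6.24% called over all tested genes. DESeq2, with 755 genes called in all, called none of the 9 either. Limma on log2 FPKM also called none, but it called only 18 or 17 genes in all, so its 0 says little about the members. The median log2 fold change of the 9 was 0.06, against 0.00 over all tested genes, whose quartiles were -0.10 and 0.11. In the authors' deposited table the q-values of 8 of the 9 ran from 0.403 for Hbegf to 0.982 for Erbb2, and Ereg was not tested there.

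The remaining ligands of the family were at similar low levels. Egf, Epgn (epigen), Nrg2, Nrg3 and Nrg4 were all tested, and edgeR, DESeq2 and limma called 0 of the 5. For a list of 5, this is close to the 6.24% of all genes called in edgeR. None of the 5 had an unadjusted p under 0.05 in edgeR. The log2 fold changes ran from -0.35 ± 0.23 for Nrg4 to 0.06 ± 0.20 for Egf. Epgn was at 2.60, 4.87 and 4.91 CPM in wild type, against 3.75, 3.10 and 2.55 CPM in knockout, with a log2 fold change of -0.33 ± 0.27 and an adjusted p of 0.580.

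Btc is the last gene of a ligand cluster on mouse chromosome 5. In mm9, Epgn, Ereg, Areg and Btc lie in that order within 375 kb, and 209 kb separate Areg from Btc. Within 500 kb of Btc the table holds 9 genes, of which 5 besides Btc were tested. None of the 5 was called in edgeR and none had an unadjusted p under 0.05, against 6.24% and 19.0% of all tested genes. Mthfd2l, a mitochondrial folate enzyme gene at the far side of the cluster, had a log2 fold change of 0.08 ± 0.13. Parm1, the tested neighbour on the other side of Btc, had a log2 fold change of 0.16 ± 0.09 with an adjusted p of 0.349. The 500 kb window was chosen with these values known.

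**Figure D3:**
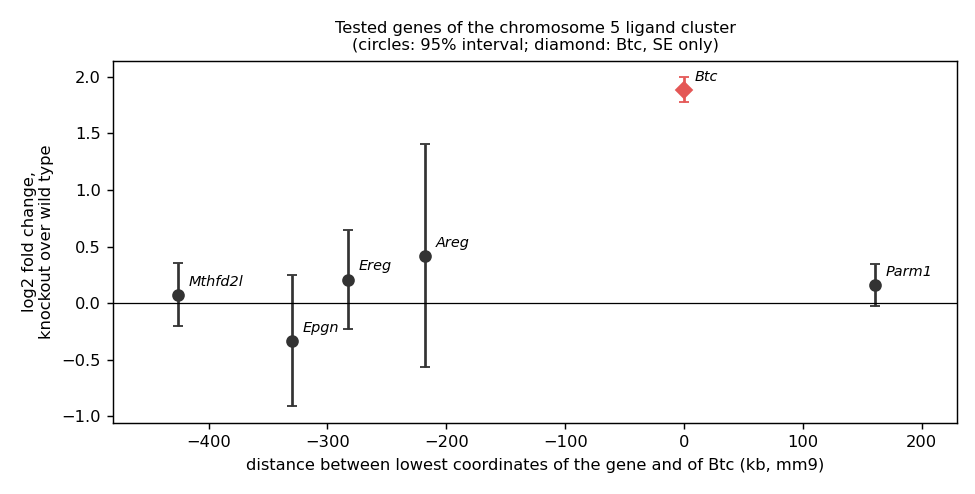
Log2 fold change (knockout over wild type) for the tested genes within 500 kb of Btc, against the distance of each gene from Btc in kb (mm9). Circles carry 95% intervals and the diamond for Btc carries its SE. Btc stands at 1.89, and the interval of every other gene includes 0.

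Per length, the order of the members changed at Btc. Levels were computed from the counts as CPM per kb of each transcript, summed over the transcripts of a gene, which allows genes to be compared. Egfr has 2 transcripts of unlike length, so its level and its place beside Btc depend on the deposited split of its fragments. In wild type Egfr led at 12.9, followed by Hbegf at 7.89, Erbb3 at 5.67, Erbb2 at 5.28 and Btc at 3.07. Tgfa followed at 2.70, Nrg1 at 2.14, Erbb4 at 1.67, Ereg at 0.832 and Areg at 0.560. Among neighbours in this order, the ranges over libraries overlapped for Erbb3 and Erbb2, for Tgfa and Nrg1, and for Ereg and Areg.

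In knockout Btc stood 2nd at 11.2 CPM per kb, behind Egfr at 11.6, and the ranges of these genes overlapped (10.1 to 11.8 and 10.7 to 12.4). Hbegf followed at 9.14, Erbb3 at 5.89, Erbb2 at 5.37, Tgfa at 2.84, Nrg1 at 2.16, Erbb4 at 1.75, Ereg at 0.942 and Areg at 0.849. Here the overlapping neighbours were Egfr and Btc, Erbb3 and Erbb2, Tgfa and Nrg1, Nrg1 and Erbb4, and Ereg and Areg. By the authors' FPKM, Btc stood 7th in wild type at 2.16 and 3rd in knockout at 7.51, behind Egfr at 9.63 and Hbegf at 7.86. Its wild type FPKM range, 1.25 to 3.30, overlapped those of Nrg1, Tgfa and Erbb4, and its knockout range overlapped that of Hbegf.

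As a share of the summed level per length of all 11 ligands, Btc made up 11.8, 11.2 and 13.7% in wild type and 29.2, 35.2 and 34.0% in knockout. Hbegf made up 34.3, 29.0 and 31.0% in wild type and 24.7, 29.2 and 26.7% in knockout. The share of Btc was below that of Hbegf in every wild type library and above it in every knockout library. On the deposited FPKM, Btc was below Hbegf in knockout replicate 1 (6.17 against 7.21) and replicate 2 (7.24 against 8.38), and above it only in knockout replicate 3 (9.13 against 7.98). The sum of the 11 ligands was 24.7, 25.3 and 25.3 CPM per kb in wild type and 34.6, 33.5 and 34.1 in knockout. Without Btc it was 21.8, 22.5 and 21.9 in wild type and 24.5, 21.7 and 22.5 in knockout, and the groups overlapped. Egfr made up 53.2, 50.2 and 47.8% of the summed level of the 4 receptors in wild type and 48.2, 46.2 and 46.6% in knockout.

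**Figure D4:**
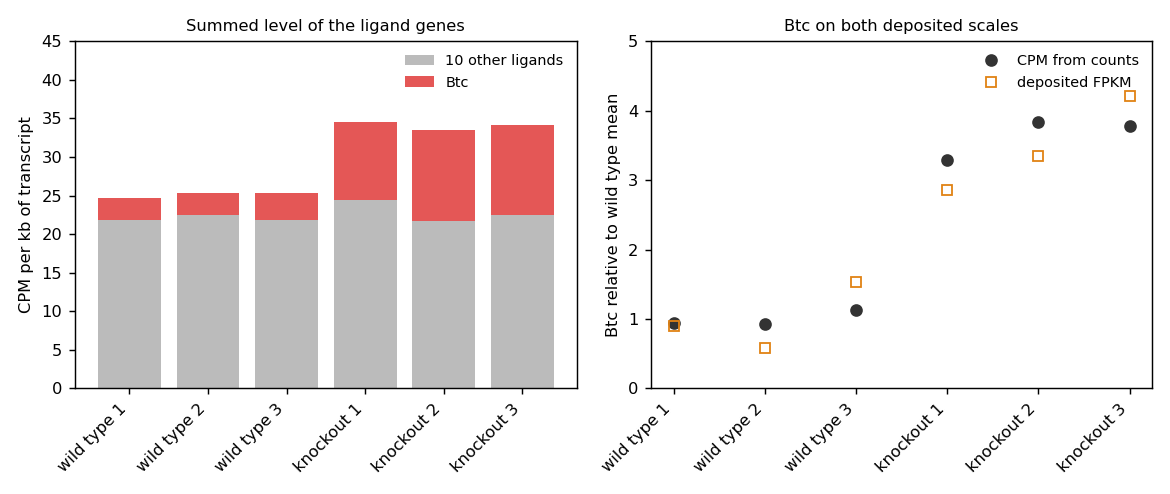
Left, summed level of 11 ligand genes in CPM per kb in each library, with the Btc part in red. Right, Btc in each library relative to its wild type mean, on CPM from the counts and on the deposited FPKM. The sum of the 10 other ligands lay at 21.7 to 24.5 in all 6 libraries, and the 3 knockout libraries were above the 3 wild type libraries for Btc on both scales.

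The genes whose level over the 6 libraries was most like that of Btc were taken by Pearson correlation of log2 CPM among 14884 genes. They were 9330159M07Rik (r = 0.999), Ttr (r = 0.999), which encodes the thyroxine and retinol carrier transthyretin, Eif4b (r = 0.997), a translation factor gene, Socs3 (r = 0.997), a cytokine feedback inhibitor, and Edn2 (r = 0.996), the endothelin 2 gene. Their own changes were of very different size. Edn2 rose from a mean of 0.587 to 31.0 CPM and Socs3 from 7.04 to 17.2 CPM, while Eif4b was at 244 and 274 CPM. For all of them the 6 points form 2 groups that share genotype, so r mainly describes the step between groups, and 20 genes reached an r of at least 0.99.

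For the other members the correlations follow small differences between 6 libraries and are given as a description. The closest genes were Zim1 (r = 0.996) and Chrna5 (r = 0.994) for Hbegf, Gfod2 (r = 0.999) and Mdfi (r = 0.993) for Ereg, and Mthfd2l (r = 0.990) and Wdr72 (r = 0.987) for Tgfa. For Nrg1 they were Ube2v1 (r = 0.986) and Epcam (r = 0.983). Among the receptors they were Mrpl38 (r = 0.996) and Fbn2 (r = 0.992) for Egfr, Tnip1 (r = 0.989) and Pcnt (r = 0.987) for Erbb2, Igsf3 (r = 0.988) and Ulk1 (r = 0.988) for Erbb3, and Nat10 (r = 0.994) and Dkk2 (r = 0.992) for Erbb4. Areg was below 1 CPM on average and was left out.

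Markers of several cell types differed between the same groups as Btc, and their counts stand beside 2.89% of all tested genes called higher and 3.35% called lower. These marker lists, and the rod list above, were chosen with earlier results of these data known, so the counts are a description. Of 10 microglia and macrophage markers 6 rose, and their summed level was 202 to 230 CPM in wild type, against 288 to 328 CPM in knockout. Of 10 corneal and conjunctival epithelium markers 4 rose, with 4770 to 5428 CPM in wild type, against 5655 to 5982 CPM in knockout. Of 7 vascular endothelium markers 2 rose, with 234 to 261 CPM in wild type, against 313 to 325 CPM in knockout. Cone markers fell in 5 of 5 genes, from 587 to 619 CPM to 386 to 398 CPM. Of 10 Mueller glia markers 1 rose and 2 fell, with 4183 to 4368 CPM in wild type, against 3944 to 4152 CPM in knockout. Those that fell were Glul, from a mean of 1953 to 1589 CPM, a loss larger than that of the whole sum, and Car14. Aqp4 rose from 87.4 to 116 CPM, and the median log2 fold change of this list was 0.11. Of 6 tested retinal pigment epithelium markers 1 rose and 1 fell, with 1761 to 1814 CPM in wild type, against 1971 to 2004 CPM in knockout. The marker that rose was Ttr, from a mean of 596 to 877 CPM, a gain larger than that of the whole sum, and the one that fell was Rpe65, from 211 to 174 CPM. Of 8 extraocular muscle markers 2 rose, with 2217 to 3242 CPM in wild type, against 2945 to 3339 CPM in knockout. Of 7 tested oligodendrocyte and Schwann cell markers 1 fell and 6 had an unadjusted p under 0.05, with a sum of 443 to 720 CPM in wild type, against 312 to 526 CPM in knockout. Of 6 tested amacrine and horizontal cell markers 2 fell, with 530 to 558 CPM in wild type, against 487 to 517 CPM in knockout. Of 7 bipolar cell markers 2 fell, with 908 to 961 CPM in wild type, against 840 to 893 CPM in knockout. Ganglion cell and melanocyte markers were called in 0 of 7 and 0 of 6 genes by edgeR, with 1 and 3 at an unadjusted p under 0.05. Lens markers were called in 0 of 8 genes by edgeR, with 2 at an unadjusted p under 0.05. No marker of the microglial, epithelial or endothelial list was at 0 on average, and the part of these cell types in the rise of Btc was not tested.

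Genes that release and traffic the ligands were described next. Of 15 listed, 13 were tested, and edgeR, DESeq2 and limma called 0. Over all 14919 tested genes edgeR called 931 (6.24%), DESeq2 755 and limma 18 or 17. With lists as short as this one and those below, a count of 0 is close to these shares. The 13 genes had a median log2 fold change of 0.07, and 2 had an unadjusted p under 0.05 in edgeR. Adam17, the main sheddase of several of these ligands, was at 46.3, 43.6 and 46.2 CPM in wild type, against 50.3, 49.8 and 49.7 CPM in knockout. Its log2 fold change was 0.14 ± 0.07 with an adjusted p of 0.274. Adam10, the sheddase known for betacellulin, had a log2 fold change of 0.01 ± 0.07 with an adjusted p of 0.937. The 2 genes with an unadjusted p under 0.05 were Bace1, a protease that cuts neuregulin, at -0.20 ± 0.06 with an adjusted p of 0.0846, and the rhomboid protease gene Rhbdl2, at 0.84 ± 0.32 with an adjusted p of 0.149, both on the log2 scale. Adam17, Adam10, Bace1 and Rhbdl2 were named after their values were seen.

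Of 17 tested genes for receptor inhibition and turnover, edgeR, DESeq2 and limma called 0, and none had an unadjusted p under 0.05 in edgeR. Their median log2 fold change was 0.04. Errfi1, a feedback inhibitor of EGFR, had a log2 fold change of -0.14 ± 0.08 and an adjusted p of 0.393. Of 30 tested genes for adaptors and kinase cascades below the receptors, the same tests called 0, with 2 at an unadjusted p under 0.05 in edgeR, and the median was 0.02 on the log2 scale. These were Akt2, a kinase of the PI3K branch, with a log2 fold change of 0.18 ± 0.06 and an adjusted p of 0.0890, and Nck1, an adaptor, with 0.20 ± 0.08 and an adjusted p of 0.192. Errfi1, Akt2 and Nck1 were also named after their values were seen.

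Of 30 feedback and response genes of the ERK pathway, 26 were tested in edgeR, and 4 rose, 1 fell and 21 did not pass. Over all tested genes 2.89% rose and 3.35% fell, but this list was chosen with earlier results of these data known. Its counts are therefore a description. The list's median log2 fold change was -0.08. These genes answer many stimuli besides EGF ligands. Spry2, a feedback inhibitor of receptor tyrosine kinase signalling, fell by 0.41 ± 0.07 on the log2 scale (adjusted p = 0.00208). It was at 49.1, 52.2 and 54.8 CPM in wild type, against 40.6, 38.2 and 37.8 CPM in knockout, with no overlap. Of all tested genes, 11.7% lay lower in knockout without overlap.

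The genes that rose include 3 AP-1 subunits. Junb was at 29.0, 25.2 and 30.8 CPM in wild type, against 40.7, 37.4 and 40.0 CPM in knockout, a log2 fold change of 0.49 ± 0.09 (adjusted p = 0.00214). Fosl2 was at 66.4, 59.7 and 68.9 CPM in wild type, against 75.9, 84.7 and 77.1 CPM in knockout, a log2 fold change of 0.28 ± 0.07 (adjusted p = 0.0246). Both had no overlap between the groups. Fosb was at 1.58, 0.564 and 1.84 CPM in wild type, against 3.51, 2.41 and 2.83 CPM in knockout, a log2 fold change of 1.18 ± 0.33 (adjusted p = 0.0410). Cyr61, which encodes a secreted matrix protein, was at 40.5, 27.4 and 28.4 CPM in wild type, against 51.0, 42.5 and 44.7 CPM in knockout, a log2 fold change of 0.50 ± 0.13 (adjusted p = 0.0257). Fosb and Cyr61 did not overlap between the groups either. Over all tested genes, 11.6% lay higher in knockout without overlap and 11.7% lay lower. The gap is thus no separate result for Junb, Fosl2, Fosb and Cyr61, which were already called. DESeq2 did not call Fosb (adjusted p = 0.0726), and limma on log2(FPKM + 1) or log2(FPKM + 0.1) called none of these genes or Spry2, with adjusted p-values from 0.525 for Fosb upward.

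Other response genes did not pass. Dusp6, an ERK phosphatase whose transcript is used as a readout of ERK activity, stood at 0.08 ± 0.07 on the log2 scale (adjusted p = 0.660), and Fos had -0.11 ± 0.17 (adjusted p = 0.803). Egr1 was at 15.8, 8.39 and 12.9 CPM in wild type, against 20.3, 13.3 and 18.6 CPM in knockout, with overlap and an adjusted p of 0.152. Dusp4 was at 36.9, 36.1 and 35.5 CPM in wild type, against 32.0, 29.5 and 32.0 CPM in knockout. Its log2 fold change was -0.21 ± 0.08 with an adjusted p of 0.121. The groups did not overlap for Dusp4, a gap that 11.7% of tested genes had in this direction. In edgeR, 7 of the list had an unadjusted p under 0.05: the 5 called, Egr1 and Dusp4. Dusp6, Fos, Egr1 and Dusp4 were named after their values were seen. With sex of the library as a covariate, none of the 5 calls passed in edgeR: the adjusted p was 0.106 for Spry2, 0.227 for Junb, 0.104 for Fosl2, 0.540 for Cyr61 and 0.629 for Fosb. In that fit the genotype effect rests on knockout replicate 2, the only female knockout library, against the 3 wild type libraries. That this library lay outside the wild type range for all 5 follows from the lack of overlap given above and is no separate result. Leaving out single libraries ended no call of Spry2 or Junb. It ended that of Fosl2 without wild type replicate 2 (adjusted p = 0.105) or knockout replicate 2 (0.134). Cyr61 did not pass without wild type replicate 2 (0.129) or 3 (0.0847) or without knockout replicate 1 (0.141), 2 (0.0559) or 3 (0.0510). Fosb did not pass without wild type replicate 2 (0.123) or without knockout replicate 1 (0.176), 2 (0.0756) or 3 (0.0988).

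**Figure D5:**
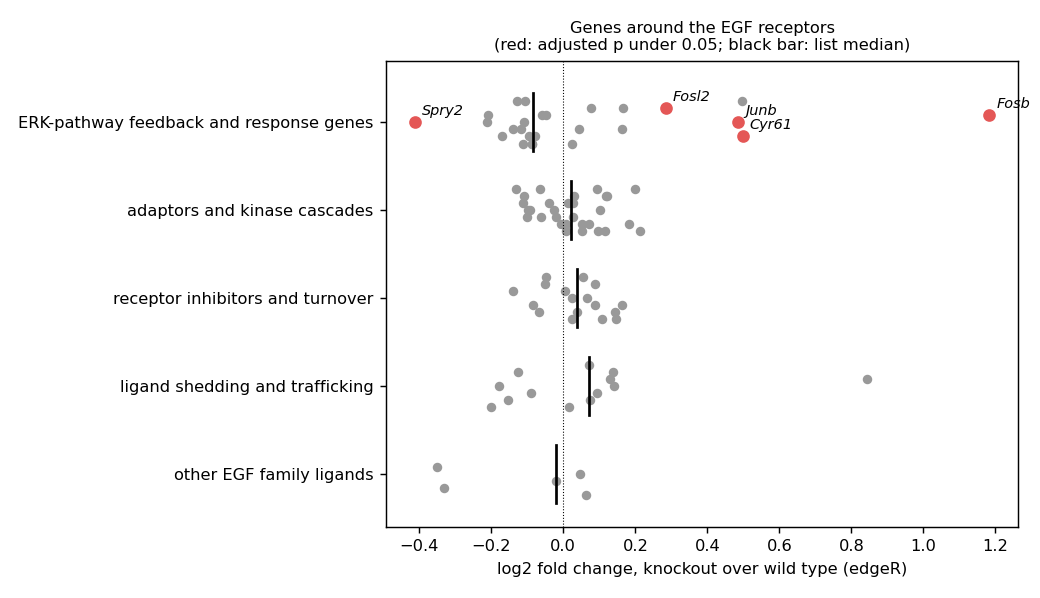
Log2 fold change (knockout over wild type) for each tested gene of 5 lists around the receptors, with the list median as a black bar and genes past an adjusted p of 0.05 in red. The red points are Spry2 at -0.41 and Fosl2, Junb, Cyr61 and Fosb at 0.28 to 1.18, all in the ERK response list.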

How the data were processed

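Libraries were made from total RNA of whole eyes by standard Illumina methods and sequenced on an Illumina HiSeq instrument, per the labels. The submitters' processing notes name TopHat2 2.0.12, Cufflinks 2.2.1, Cuffdiff 2.2.1 and the build mm9; strand and read length are not given in the sources used here. The authors deposited, per the file headers, estimated counts of fragments for each gene and isoform in each library. They also deposited FPKM with the authors' own scaling and a comparison table with q-values. Transcript lengths in bases came from the deposited isoform table, and positions are those of the deposited files in mm9. Of the gene values 98.5% and of the isoform values 71.7% were whole within 1e-06, and all were rounded. For 7 genes and 12 isoforms the files mark a failed estimate, and these were left out. Libraries numbered from 0 in the files were read as replicates 1 to 3, and these numbers only name libraries of a group, since the files do not state which labelled sample each is.

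The main test was edgeR 4.0.16 (R 4.3.3), quasi-likelihood, with filterByExpr (a count of 10 and a total of 15 as minima), TMM scaling, knockout against wild type in all 6 libraries, no covariate, and Benjamini-Hochberg adjustment over 14919 genes. Isoforms with a mean FPKM of at least 1 were tested in the same way. CPM are counts relative to TMM-adjusted library size. The SE of a log2 fold change is its absolute value over the root of the F statistic. All adjusted p-values come from edgeR unless another tool is named. The fits were tested on simulated data.

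Members and lists were chosen with earlier results of these data known. Named were all members, up to 6 called genes of each list, and the genes most like each member (5 for Btc, 2 for the others). Genes named outside this rule are marked where they appear. Likeness used genes with a mean of at least 1 CPM and log2(CPM + 0.5). Alternatives were DESeq2 1.42.0, its size factors, no filter, limma 3.58.1 on log2(FPKM + 1) and log2(FPKM + 0.1), a replicate block, sex of the library, and leaving out each library.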

Additional observations from a re-analysis of the deposited data

How the results depend on the processing

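Over 13 alternatives the log2 fold change of Btc stayed between 1.46 and 1.97. In 114 comparisons of the other 9 members under these alternatives, 0 passed the threshold, and the lowest adjusted p was 0.166, for Egfr with the replicate block. Areg could not be tested without wild type replicate 1, wild type replicate 2 or knockout replicate 3, where it failed the filter.

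With sex of the library as a covariate, the log2 fold change turned to -0.23 for Ereg, -0.63 for Areg, -0.49 for Nrg1, -0.0746 for Erbb2, -0.0313 for Erbb4 and -0.39 for Egf. The male libraries were all knockout, so in that fit the genotype effect rests on knockout replicate 2 alone against wild type. That library held 17 Ereg, 3 Areg and 18 Nrg1 fragments. Limma on log2(FPKM + 1) and log2(FPKM + 0.1) gave -0.0333 and -0.0496 for Nrg1. Leaving out each library gave -0.0359 to 0.261 for Nrg1, -0.0134 to 0.0826 for Erbb2, -0.00558 to 0.0971 for Erbb3, -0.0502 to 0.157 for Erbb4, -0.114 to 0.197 for Egf, -0.238 to 0.0910 for Nrg2 and -0.00582 to 0.125 for Nrg3.

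The count of called genes, 931, was 18 and 17 with limma on log2(FPKM + 1) and log2(FPKM + 0.1), 235 with sex as a covariate and 590 to 885 without single libraries. The count of called isoforms, 260, was 64 with sex and 47 to 105 without single libraries. Of the ERK response genes, 5 in the main test, 0 were called with either limma setting, 0 with sex, and 2 to 6 without single libraries: 2 without wild type replicate 2 or knockout replicate 2 and 3 without knockout replicate 1 or 3. Fosb was also lost in DESeq2 (adjusted p = 0.0726). In the fits with sex, the genotype effect rests on knockout replicate 2, the only female knockout library, against wild type. Both limma settings called few genes of any kind. The cause of these shifts was not tested.

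Same-numbered libraries did not deviate together (correlations of 0.149, 0.0899 and -0.0386), so the numbers were not taken to pair them. With the replicate block, 1169 genes, 5 isoforms and 1 shedding gene, Bace1 (adjusted p = 0.0469), were called.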
